A study of Lens culinaris with 18 samples.

Results

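The leaves of unstressed lentil seedlings were compared between 24 h and 96 h of growth in nutrient solution, across assembled transcripts. The comparison rests on 4 libraries, 2 leaf controls at 24 h and 2 leaf controls at 96 h, of the 18 samples in the series. Transcripts were included where the deposited value was at least 1 in at least 2 of these 4 libraries, which held for 24020 of 124151 transcripts. The rule used the values only to set aside low transcripts, and 633 transcripts lay just inside it, with a second-highest value of 1 to 1.1, against 700 just outside, at 0.9 to 1.

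The seedlings were wild-type Lens culinaris of the cultivar Sultan. They were germinated in perlite, moved at 7 days of age to aerated Hoagland's nutrient solution, and kept under 16 h of light and 8 h of dark. Controls stayed in the solution alone, and stressed seedlings received it with 15% polyethylene glycol (PEG 6000), which makes water harder to take up. The groups set beside the leaf controls below were leaf with PEG at 24 h and 96 h and root with and without PEG at the same times, each with 2 libraries. The controls at 96 h were thus older and had spent longer in hydroponics than those at 24 h, and age, time in solution and day of harvest cannot be told apart. The sources used here give neither the number of plants in a library nor the hour of harvest.

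A legume seedling lives first on the reserves of its seed, and its young leaves then expand, build up chloroplasts and come to supply the plant with sugar. Leaf RNA is commonly dominated by a small number of very abundant transcripts, many of which serve photosynthesis. A change in the RNA of a whole leaf can come from a change in the cells that make it up or in the RNA of each cell, and in bulk libraries fewer cells of a type and less RNA per cell cannot be told apart. The deposited file does not pair its identifiers with gene names, so transcripts are described here by level, pattern and identifier, and no role is given to any of them. The leaf label could not be checked against marker genes for the same reason.

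The values are TPM (reads divided by transcript length, then scaled to a fixed total per library) multiplied by 1 TMM factor per library, and are called levels below. Summed levels were 943452 and 847527 at 24 h and 795045 and 791717 at 96 h, with 22354 to 23291 transcripts at 1 or more in each of the 4 libraries. Read depth is unknown. A pair of transcripts that made up 76.3% to 92.4% of the summed level in 3 other libraries, both leaf PEG libraries at 96 h and root control replicate 2 at 24 h, and 23.3% in root control replicate 1 at 24 h, held at most 0.0236% in the leaf controls. Replicates of the leaf controls were alike, with a Spearman correlation of 0.977 at 24 h and 0.976 at 96 h over the 24020 transcripts. Between the times it was 0.797 to 0.810.

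Unstressed leaf changed broadly between the times, in both directions alike. The median absolute log2 difference was 0.134 between the 24 h replicates, 0.135 between the 96 h replicates, and 0.534 between the means of the times. A difference of at least 2-fold separated the 24 h replicates for 2.42% of transcripts and the 96 h replicates for 2.28%, but the means of the times for 26.6%. Of the 24020 transcripts, 3843 rose (16.0%) and 4109 fell (17.1%) from 24 h to 96 h, together 33.1% (limma on log2(level + 1) over the 8 leaf libraries, Benjamini-Hochberg adjusted p under 0.05).

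Most of the changes called were larger than 2-fold. At least 2-fold rises numbered 2595 (10.8% of all tested) and at least 2-fold falls 2621 (10.9%). At least 4-fold changes comprised 764 rises and 749 falls, and at least 16-fold changes 50 rises and 61 falls. The median rise was 1.25 on the log2(level + 1) scale and the median fall −1.21. Both 96 h libraries lay above both 24 h libraries for 9672 transcripts (40.3%) and below both for 9571 (39.8%), and this held for every transcript called.

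**Figure D1:**
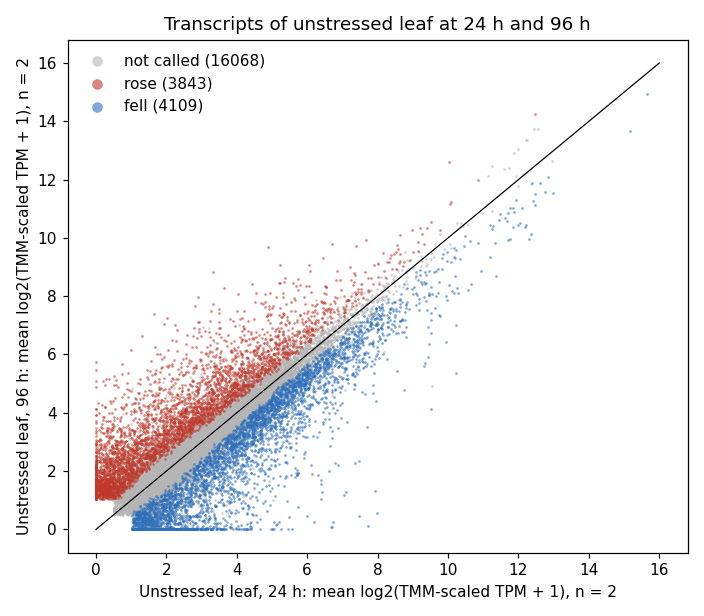
Mean level of each of the 24020 transcripts in unstressed leaf at 24 h (x axis) and 96 h (y axis), on the log2(TMM-scaled TPM + 1) scale with 2 libraries each; red points rose, blue points fell, grey points were not called and the line marks equal levels. The 3843 rises and 4109 falls spread over the whole range, and at a mean level of at least 1000 the blue points number 40 and the red 7.

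The number of calls depended on which libraries were in the fit, both those that gave the spread and those compared. It was 12471 without the leaf 96 h PEG group, 12499 and 12493 without replicate 1 or 2 of that group, 13884 from the 4 leaf controls alone, and 4330 to 4682 without any 1 of these 4. The share of falls among calls was 51.7% as deposited. It was 50.4% under median-ratio size factors, 41.5% after removing the dominating pair and equalising totals, and 41.0% under equal totals alone. Which direction held the majority thus turned with the scaling.

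Some members passed the limit through 1 time only and so had to differ. The level was at least 1 in both 24 h libraries and in no 96 h library for 1712 transcripts, of which 1230 fell. The reverse held for 1839, of which 1212 rose. Of the 18215 transcripts at 1 or more in all 4 libraries, 2434 rose and 2719 fell.

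The most abundant transcripts mostly moved down. Among the 69 with a mean level of at least 1000 over the 4 libraries, 40 fell (58.0%) and 7 rose (10.1%), and the median change in the class was −0.73 (log2), where all transcripts had 0.01. Between 100 and 1000, 379 of 921 fell (41.2%) and 202 rose (21.9%), with a median of −0.26. The balance was closer to even below: 1678 falls and 1399 rises of 8299 between 10 and 100, and 1670 falls and 1859 rises of 13242 between 1 and 10. Equalising the totals of the libraries moved these lower classes towards rises, to 1439 falls and 2072 rises between 10 and 100 and 1889 falls and 3039 rises between 1 and 10. Between 100 and 1000 it left 320 falls and 248 rises, with a median of −0.08. Equalising totals after taking out the pair gave 1205 falls and 1731 rises between 10 and 100, and 284 falls and 231 rises between 100 and 1000. In the highest class falls outnumbered rises under each scaling, at 38 and 7 for median-ratio factors, 36 and 8 for equal totals, and 35 and 8 for equal totals without the pair. The median over all transcripts was 0.17 under equal totals and 0.15 under equal totals without the pair, while that of the highest class was −0.56 under either.

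**Figure D2:**
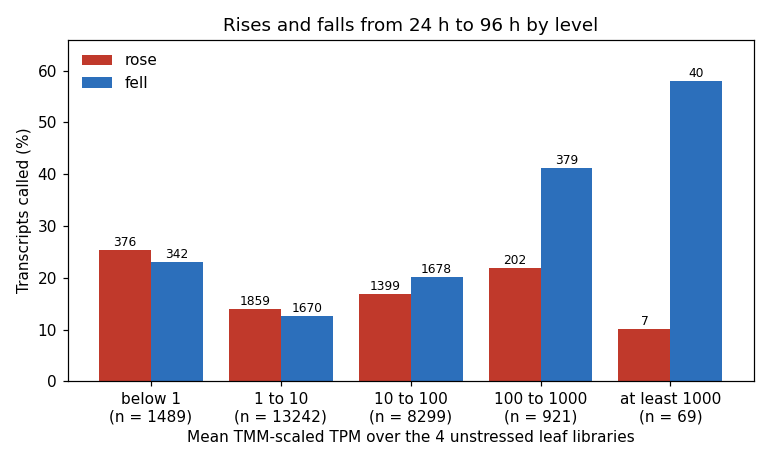
Share of transcripts that rose (red) or fell (blue) from 24 h to 96 h in unstressed leaf, in percent, by mean level over the 4 libraries; the numbers above the bars are counts of transcripts and n is the number tested in each class. Falls reach 58.0% in the class of at least 1000, where 10.1% rose, while the classes below 100 hold near-equal bars.

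The changed transcripts held different shares of the summed level at the 2 times. Transcripts that fell carried 49.9% and 52.2% of the summed level in the 24 h libraries, and 26.7% and 24.9% at 96 h. Those that rose carried 7.43% and 7.81% at 24 h, and 22.5% and 23.1% at 96 h. These shares describe transcripts chosen on the same libraries and are not a test.

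Individual transcripts at the top of the range changed by different amounts. The most abundant transcript of all stood at 55076 and 48241 at 24 h and at 32214 and 29870 at 96 h (log2 fold change −0.73, SE 0.10, limma adjusted p = 0.00257). The second stood at 29891 and 26590, then at 28330 and 27734, with a change of −0.01 (SE 0.12, limma adjusted p = 0.97), and its replicates overlapped. The third went from 37458 and 35525 to 14147 and 11985 (−1.49, SE 0.10, limma adjusted p = 0.00023). The fourth moved the other way, from 5974 and 5361 to 19623 and 19684 (1.80, SE 0.17, limma adjusted p = 0.000693), and was 1 of 2 rises among the 30 most abundant. Of these 30, 12 fell and 16 were not called, and together they held 25.9% to 30.8% of the summed level in each of the 4 libraries. Of the 100 most abundant, 57 fell, 14 rose and 29 were not called. The pair that dominates other libraries was modest here, with one member at 74.3 and 62.9 at 24 h and at 132 and 107 at 96 h (0.79, SE 0.14, limma adjusted p = 0.00781). The other member went from 27.7 and 24.0 to 55.5 and 41.9 (0.88, SE 0.16, limma adjusted p = 0.00819). Both rose without overlap between the times.

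A small block of abundant transcripts separated the 24 h replicates. Of the 990 transcripts with a mean of at least 100, 13 differed at least 2-fold between the 24 h replicates, and all 13 were higher in replicate 1, by 1.30 to 2.10 on the log2 scale. Across the 990 the median difference was 0.08. The 13 included 10 of the 69 transcripts with a mean of at least 1000. Together they summed to 73044 in replicate 1 and 22834 in replicate 2 at 24 h, or 7.74% and 2.69% of the library, and to 80533 and 93049 at 96 h. The 96 h libraries were thus close to 24 h replicate 1 and well above replicate 2, and none of the 13 was called. Only 1 of the 990 differed at least 2-fold between the 96 h replicates, and it was not among the 69.

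The same 13 transcripts, singled out after their values were seen, ranged widely in the libraries not used to find them. They summed to 46691 and 76337 in leaf with PEG at 24 h, and to 747461 and 966825 in leaf with PEG at 96 h. The summed levels of these libraries differ too, at 749269 and 805241 at 24 h and 6997680 and 6699070 at 96 h. Of the whole summed level the 13 held 6.23% and 9.48% at 24 h of PEG, and 10.7% and 14.4% at 96 h. Of what remained beside the dominating pair they made up 56.6% and 60.8% at 96 h of PEG. In root they held at most 4.16% of what remained beside the pair, and at most 0.942% at 96 h. Without 24 h control replicate 1, rises in the class of at least 1000 numbered 15 instead of 7, and falls 29 instead of 40. The part of this block in other results was not tested.

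**Figure D3:**
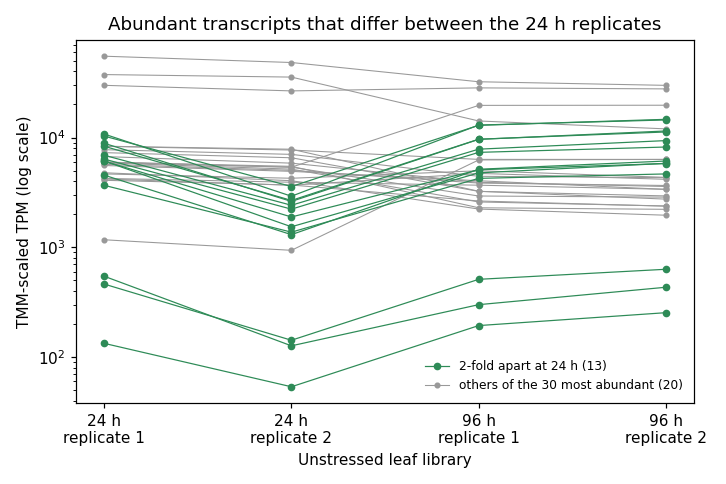
Level of single transcripts in the 4 unstressed leaf libraries (TMM-scaled TPM, log scale); green lines are the 13 transcripts of mean 100 or more that differ at least 2-fold between the 24 h replicates, grey lines the other 20 among the 30 most abundant. All 13 green lines dip in 24 h replicate 2, whereas the grey lines run nearly level between replicates.

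The 2 largest rises and the 2 largest falls, among called transcripts whose higher group averaged 10 or more, are described by identifier. They were picked by the size of their change in the leaf controls, so their p-values there are descriptions, not support. TRINITY_DN45636_c3_g2, TRINITY_DN30786_c0_g1 and TRINITY_DN36415_c0_g1 also passed the limit through their higher time only, and so had to differ. TRINITY_DN23918_c0_g1 was at 2.93 and 1.45 at 24 h and at 179 and 158 at 96 h. The groups lay far apart, at 2.19 ± 1.05 and 169 ± 14.8 (mean ± SD, n = 2 each), a change of 5.77 on the log2 scale (SE 0.27, limma adjusted p = 0.000138). In leaf with PEG it was at 0.09 and 0.089 at 24 h and at 5.04 and 3.75 at 96 h, below the control of the same time at both. In root controls it went from 6.67 and 7.64 to 86.1 and 86.5 (log2 fold change 3.42, SE 0.18, limma adjusted p = 0.000234). In root with PEG it was at 0.717 and 0.762 at 24 h and at 37.0 and 29.2 at 96 h. Its rise in leaf with PEG was also called (log2 fold change 2.3, SE 0.27, limma adjusted p = 0.000977). It was therefore higher at 96 h than at 24 h in both tissues with and without PEG, and highest in the 96 h controls of each.

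TRINITY_DN45636_c3_g2 was listed at 0 in both 24 h controls and stood at 49.0 and 57.3 at 96 h (limma adjusted p = 0.0132). The call was lost without any 1 of the 4 leaf controls (limma adjusted p 0.0761 to 0.0864). With PEG the replicates disagreed, at 3.54 and 0 at 24 h and at 9.94 and 0 at 96 h. In root controls the levels were 7.09 and 29.3 at 24 h and 9.91 and 12.9 at 96 h, so the groups overlapped there.

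TRINITY_DN30786_c0_g1 fell from 235 and 187 at 24 h to 0.095 and 0.087 at 96 h. The change was −7.59 on the log2 scale (SE 0.60, limma adjusted p = 0.000403). In leaf with PEG at 24 h it was at 26.6 and 28.0, between the control groups. At 96 h of PEG it was at 3.01 in one library and listed at 0 in the other. Its fall between the times under PEG was also called (−3.82, SE 0.6, limma adjusted p = 0.00302). The 96 h PEG leaf libraries had 23194 and 23760 transcripts above 0, against 44724 and 45510 at 24 h of PEG. In all 8 root libraries TRINITY_DN30786_c0_g1 was at 0.642 or below.

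TRINITY_DN36415_c0_g1 fell from 218 and 291 to 0.421 and 0.499. Its change was −7.44 on the log2 scale (SE 0.63, limma adjusted p = 0.000497). With PEG it was at 27.3 and 120 at 24 h and at 36.8 and 31.0 at 96 h, so the 96 h PEG libraries lay far above the 96 h controls. Its change between the times under PEG was −0.75 (SE 0.63, limma adjusted p = 0.363), and the difference between these changes was not tested. In root it stayed at 3.59 or below, and was higher in the 96 h controls, at 2.82 and 3.59, than in the 24 h controls, where it was listed at 0 in both (limma adjusted p = 0.00127). It passed the limit in root through the 96 h controls only, so that p-value is not support either.

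Few transcripts went from near absence to presence or the reverse. A level under 0.5 in both 24 h controls and of 10 or more in both 96 h controls was found for 33 transcripts, and the reverse for 56. They were chosen on the values compared, so their calls are not given. Of the 33, 26 were at 1 or more in both root controls at 96 h, where their median levels were 9.54 and 8.94, against 1.04 and 0 in the root controls at 24 h. The median of 0 was that of root 24 h control replicate 2, with 24351 transcripts above 0 against 45879 in replicate 1. In leaf with PEG at 96 h, 12 of the 33 were at 1 or more in both libraries, which had 23194 and 23760 transcripts above 0. The part of such missing low values in these levels was not tested. Of the 56 that went away, 25 were at 1 or more in both leaf PEG libraries at 24 h. Medians of the 56 there were 1.04 and 1.18, against 17.5 and 19.8 in the controls of that time. The matching shares of all 24020 transcripts are not given. These counts therefore do not set the 33 or the 56 apart from the rest. Presence in root was common, with 13957 of the 24020 at 1 or more in every root library.

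Transcripts near absent from root were counted apart from those present throughout it. Under 0.5 in all 8 root libraries were 1658 of the transcripts, and 581 of them fell (35.0%) and 397 rose (23.9%), where 17.1% and 16.0% of all transcripts did. At 1 or more in all 8 root libraries were 13957, of which 2289 fell (16.4%) and 1825 rose (13.1%). The remaining 8405 held more rises than falls, 1621 and 1239. The leaf-only transcripts were lower, with a median level of 1.53 against 12.1 in those present throughout root, and the part of level in these shares was not tested.

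Transcripts of 1 assembly component, which may be copies, alleles or fragments of 1 gene and may share reads, did not always move together. Among the 24020, 8365 had at least 1 partner in their component, and 31.8% of these were called, near the 33.8% of those without a partner. Of 666 components with at least 2 transcripts called, 483 moved in 1 direction and 183 held both a rise and a fall.

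The transcripts that rose in unstressed leaf were at their highest in the 96 h controls of both tissues. Their median level on the log2(level + 1) scale was 1.92 in each 24 h leaf control and 3.54 and 3.56 in the 96 h leaf controls, by which they had been chosen. In root, which played no part in the choice, it was 2.15 and 1.69 in the 24 h controls and 3.17 and 3.18 in the 96 h controls. The median of all 24020 transcripts in the same root libraries was 2.68, 2.26, 2.74 and 2.74. Relative to it, the risen transcripts were at −0.53 and −0.58 in the 24 h root controls and at 0.43 and 0.44 in the 96 h root controls. In the 8 libraries with PEG they lay below it throughout, at −0.34 and −0.36 in leaf at 96 h and at −0.32 in each root library at 96 h.

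The transcripts that fell lay above the median of all transcripts in every leaf library with PEG. Their positions in the 24 h and 96 h leaf controls were set by the choice, which used those libraries. Falls were also more common among transcripts abundant in leaf, at 41.2% between 100 and 1000 and 12.6% between 1 and 10. The position of the fallen transcripts in leaf with PEG is therefore not independent of the choice. Relative to the median of all transcripts they were at 1.24 and 1.27 in the 24 h leaf controls. They were at 0.70 and 0.81 in leaf with PEG at 24 h, and at 0.61 and 0.62 in leaf with PEG at 96 h. In the 96 h leaf controls their position was −0.27 and −0.34. In the root controls it went from 0.26 and 0.21 at 24 h to −0.31 and −0.30 at 96 h. Both sets were thus set apart from the rest in the same sense in the root controls as in the leaf controls.

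**Figure D4:**
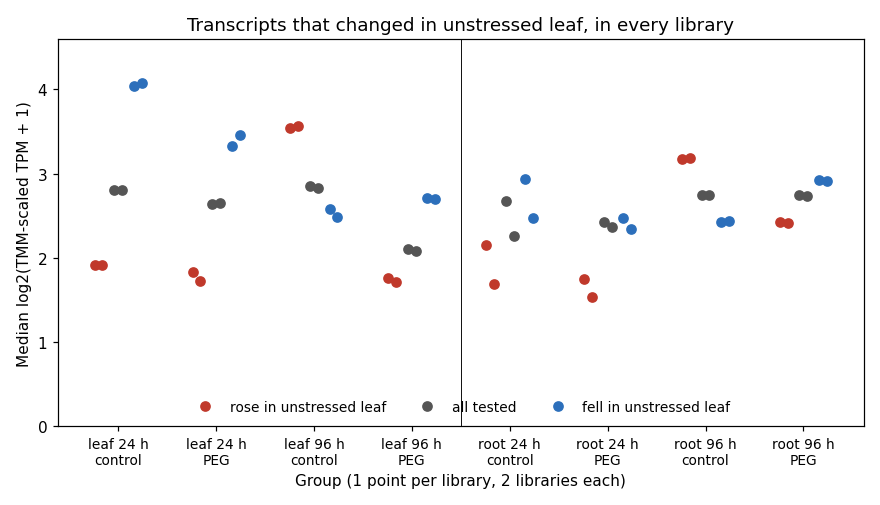
Median log2(TMM-scaled TPM + 1) in each of the 16 libraries for the 3843 transcripts that rose in unstressed leaf (red), the 4109 that fell (blue) and all 24020 tested (grey), with 1 point per library and 2 libraries a group. Red lies above grey only in the 96 h controls of leaf and root, and blue lies below grey in those same groups, apart from 1 root PEG library at 24 h where blue lies 0.02 below.

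Whole profiles were also compared. The 96 h leaf controls had Spearman correlations of 0.764 to 0.790 with leaf under PEG at 24 h, 0.731 to 0.740 with the 96 h root controls, and 0.657 to 0.665 with leaf under PEG at 96 h. The 24 h leaf controls had 0.844 to 0.851 with leaf under PEG at 24 h and 0.638 to 0.643 with the 96 h root controls. These are descriptions over the 24020 transcripts, and the leaf 96 h PEG libraries were the ones dominated by the pair.

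The change between the times was then set beside that of unstressed root, which shares no library with it. Of 19804 transcripts that reached the limit in both tissues, 3035 rose in leaf (15.3%) and 2998 fell (15.1%), and 3957 rose in root (20.0%) and 1563 fell (7.89%). The balance in root turned on the scaling and on 1 library: it was 3270 rises and 3043 falls under equal totals without the pair, 2317 and 42 under equal totals, and 4671 and 3519 without root 24 h control replicate 2. Rises in both tissues numbered 1717, which is 56.6% of the leaf rises and 43.4% of the root rises. Falls in both numbered 584, which is 19.5% of the leaf falls and 37.4% of the root falls. Opposite calls were fewer, with 85 up in leaf and down in root and 281 the reverse. The changes in leaf and root were related across the 19804 transcripts (Pearson 0.457, Spearman 0.427). This is a description, since transcripts are not independent replicates.

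Shared rises ranged from 1416 with equal totals to 1850 without root 24 h control replicate 2, the library dominated by the pair. As a share of the leaf rises these were 29.5%, where 11.7% of all transcripts rose in root, and 61.0%, where 23.6% did. Shared falls were 37.4% of the leaf falls (1120) without that library, where 17.8% of all transcripts fell in root. They were 27.0% (756) under median-ratio factors, where 10.8% fell, and 36.0% (836) under equal totals without the pair, where 15.4% fell. They were 0.449% (13) under equal totals, where 0.212% fell, a scaling that keeps the pair in the total and so lifts all other root transcripts at 96 h relative to 24 h.

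**Figure D5:**
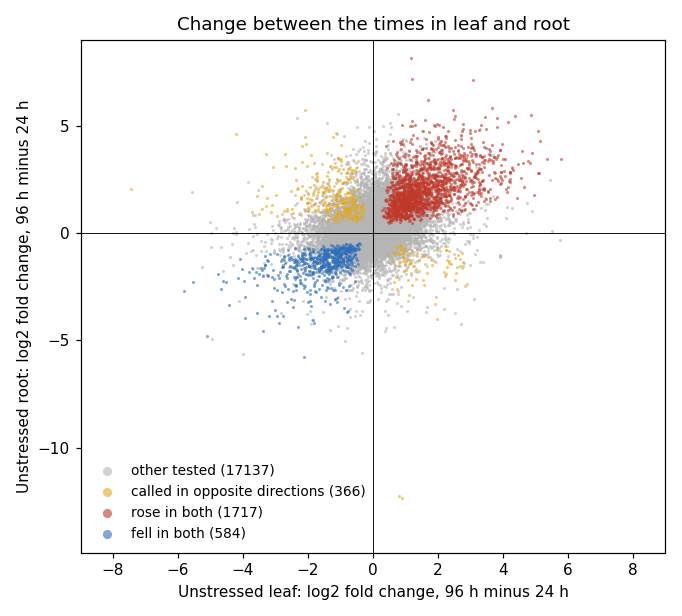
Log2 fold change from 24 h to 96 h in unstressed leaf (x axis) and unstressed root (y axis) for the 19804 transcripts tested in both tissues, on the log2(TMM-scaled TPM + 1) scale; red points rose in both, blue points fell in both, yellow points were called in opposite directions. The 1717 shared rises and 584 shared falls fill the upper right and lower left, and 366 yellow points the other corners, the lowest of them the dominating pair.

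Tested directly, the change differed between the tissues for 3034 of the 19804 transcripts, 15.3% (limma interaction over 16 libraries, adjusted p under 0.05). It was higher in leaf for 756 (3.82%) and lower in leaf for 2278 (11.5%). The median difference, leaf minus root on the log2 scale, was −0.304 as deposited. It was −0.065 without root 24 h control replicate 2, the library dominated by the pair, and −0.540 without replicate 1. Which tissue had the higher change turned with the scaling: of the differing transcripts 75.1% were lower in leaf as deposited, 66.7% under median-ratio factors, 44.9% under equal totals without the pair and 94.2% under equal totals. Leaving out root control replicate 1 of 24 h gave 7778, and leaving out any 1 of the 4 leaf controls or either 96 h root control gave 1619 to 1812.

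Stressed leaf was followed over the same interval. Between 24 h and 96 h of PEG, 2589 of the 24020 transcripts rose (10.8%) and 9630 fell (40.1%; limma, adjusted p under 0.05), in libraries that the control comparison does not contain, although both took their spread from 1 fit. These counts were 3908 and 6853 under median-ratio factors, 1095 and 14547 under equal totals without the pair, and 139 and 20050 under equal totals. The 96 h PEG libraries, dominated by the pair, had 23194 and 23760 transcripts above 0, against 44724 and 45510 at 24 h of PEG. Rescaling cannot restore values listed at 0, and their part in the falls and in the overlaps below was not tested. Of the 3843 rises in unstressed leaf, 854 rose with PEG too (22.2%, and 33.0% of the rises with PEG), while 1115 fell (29.0%). Of the 4109 falls, 1985 also fell with PEG (48.3%, and 20.6% of the falls with PEG), where 40.1% of all transcripts did. Another 410 of these falls rose with PEG (9.98%). The changes with and without PEG were weakly related across transcripts (Pearson 0.165, Spearman 0.141), again as a description. Under median-ratio factors 29.2% of the unstressed rises rose with PEG, where 16.3% of all transcripts did, and 36.2% of the falls fell, where 28.5% did. Under equal totals without the pair the rises gave 10.2% against 4.56%, and the falls 62.7% against 60.6%. Under equal totals the rises gave 1.23% against 0.579%, and the falls 81.4% against 83.5%. The share of falls was thus near that of all transcripts under these last scalings.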

How the data were processed

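The deposited table holds 1 signal value per assembled transcript for 16 root and leaf libraries; 2 unstressed stem samples were not analysed here. Polyadenylated RNA was made into strand-marked libraries and read as pairs, per the labels' protocols. The deposited signal was TPM times 1 factor per library: in every library 100% of values above 0 and under 0.5 lay within 0.0006 of a whole multiple of the total divided by 1e8. Per the submitters' processing notes, the tools included RSEM, edgeR, Trimmomatic 0.35 and FastQC 0.11.5, whose roles are not listed. The sources used here name no assembler, aligner or filter. TPM keeps no counts, so no counting intervals are given.

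Levels were tested with limma 3.58.1 in R 4.3.3 on log2(level + 1), with a mean per group, eBayes (trend and robust) and Benjamini-Hochberg adjustment over all transcripts tested. Fold changes on this scale understate those of low transcripts. Leaf comparisons used the 8 leaf libraries, root the 8 root libraries, and the tissue difference all 16. Named were the 2 largest rises and falls with adjusted p under 0.05, a higher group averaging 10 or more, and groups that did not overlap. The labels call the replicates biological. The p-values rest on a spread pooled over all groups of a fit, PEG groups included, and adjusted across transcripts by eBayes. They cover these samples alone. The fits were tested on simulated data. The alternatives were other pseudocounts (0.1, 5), filters, scalings, sources of spread, eBayes options, a replicate block and leaving out each library. Overlaps and the highest level class were also recomputed under alternatives chosen after seeing the data. The comparison and classes were chosen with earlier results of these data known.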

Additional observations from a re-analysis of the deposited data

Results flagged for a closer look

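The change of unstressed transcripts between 24 h and 96 h differed between leaf and root, by a direct test of the difference, for 3034 of 19804 transcripts (limma interaction, adjusted p under 0.05). Its direction turned with the scaling, as given above. No group had enough libraries to look for single libraries far from the others.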

How the results depend on the processing

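In unstressed leaf the 7952 calls became 13884 with spread from the compared libraries only and 12471 without the leaf 96 h PEG group, and ranged from 4330 to 12499 with single leaf libraries left out. Stressed leaf had 12219 calls, 20189 with equal totals and 6968 with spread from the compared libraries only, and 9234 to 15089 with single libraries left out. Unstressed root had 5520, 9175 with any value above 0 allowed, 2359 with equal totals and 2076 with spread from the compared libraries only, and 1716 (without 96 h control replicate 2) to 12391 (without 24 h control replicate 1) with single libraries left out. The difference between the tissues had 3034, 5226 with any value above 0 allowed, 993 with equal totals, and 1619 to 7778 with single libraries left out. The causes were not tested. A group left with 1 library is assumed to vary like the others.

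Pseudocounts, the stricter filter, median-ratio factors, equal totals without the pair and plain eBayes kept these 4 counts within 1.5 times. TRINITY_DN23918_c0_g1, TRINITY_DN30786_c0_g1 and TRINITY_DN36415_c0_g1 kept their direction and call under all 19 alternatives. TRINITY_DN30786_c0_g1 and TRINITY_DN36415_c0_g1 had passed the limit through 24 h only, so keeping the call is no separate support for them. Transcripts under 0.1 at one time and at least 5 at the other numbered 27 rises and 93 falls, against 33 and 56 at the limits used above. The labels link replicates across groups by number alone. Differences between replicates 1 and 2 had a correlation of 0.0079 between the 24 h and 96 h leaf controls. Such a correlation cannot exclude that replicates of 1 number were handled together, and root was not checked. With the number as a replicate block the calls were 7184 in unstressed leaf, 11592 in stressed leaf, 4957 in root and 2644 for the difference. Unknown depth limits what can be said of low transcripts.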
